A study of Peromyscus maniculatus and Peromyscus polionotus and Peromyscus maniculatus x Peromyscus polionotus with 18 samples.

Results

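The dopamine receptors are the G-protein-coupled receptors encoded by Drd1, Drd2, Drd3, Drd4 and Drd5. Their rows were taken by gene symbol, without regard to case, and no measured value entered the choice. All 5 were found among the 20731 named genes of the table of the parental species. Of these, 3 (Drd1, Drd2 and Drd3) were found among the 11928 genes of the allele table of the hybrids, and Drd4 and Drd5 were not analysed in hybrids.

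The study measured RNA from whole brains of adult male mice of the genus *Peromyscus* in 18 libraries, 3 in each of 6 groups. The groups were *P. polionotus*, the oldfield mouse, after a burrowing trial and after a control trial, *P. maniculatus*, the deer mouse, after a burrowing trial and after a control trial, and their F1 hybrids after each kind of trial. Oldfield mice are known to dig long burrows that end in an escape tunnel, deer mice to dig short plain ones, and the trials ask whether brain expression goes with species, with digging itself, or with both. Mice of every group were tested at about 50 to 80 days of age. Each had done 2 earlier trials in enclosures filled with sand and was then assigned at random to the burrowing or the control cohort and was killed with CO2 right after the test trial. What the control trial consisted of, and which species was the mother of the hybrids, is not stated in the sources used here. Whole brains were pooled over regions by the dissection, so a level is an average over all regions, and fewer cells of a type and less RNA per cell cannot be told apart.

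Dopamine receptors fall into a D1 class (Drd1 and Drd5), which acts through stimulatory G proteins and raises cyclic AMP, and a D2 class (Drd2, Drd3 and Drd4), which acts through inhibitory G proteins and lowers it. In the rodent striatum Drd1 marks the spiny neurons of the direct pathway and Drd2 those of the indirect pathway, while Drd2 also serves as the autoreceptor of midbrain dopamine neurons. Drd5 is known from hippocampus, cortex and cholinergic interneurons, Drd3 from the islands of Calleja and the accumbens, and Drd4 from frontal cortex, retina and pineal gland.

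Expression in the parental species was deposited in TPM, a transcript abundance scaled per gene length and to a common library total, which keeps no read depth. In the hybrids it was deposited as counts of reads given to 1 parental allele, from 11415175 to 53906964 per animal. Markers of striatum, cortex and hippocampus, cerebellum, hindbrain and olfactory bulb were all detected, as the label of whole brain implies. The summed TPM of 15 hindbrain genes, mostly Hox genes, was low in the polionotus control libraries (8.39 to 40.3) beside the polionotus burrowing (49.8 to 58.2), maniculatus burrowing (37.1 to 53.0) and maniculatus control libraries (45.6 to 56.3). Earlier results of these data set 3 parental libraries (polionotus burrowing 3, polionotus control 2 and maniculatus control 3) apart on a principal component, so the main results are also given without them.

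The receptors spanned a wide range of levels, in the same order in each of the 12 parental libraries. In TPM, Drd1 was highest, then Drd5, Drd2, Drd4 and Drd3. The gene lengths and the way TPM were computed are not stated, so the steps between genes hold for these values only. Drd1 averaged 171 ± 10.4 TPM in polionotus brains and 95.4 ± 14.7 TPM in maniculatus brains (SD, n = 6 each), which is above 95.03% and 91.1% of all named genes. Drd1 exceeded Drd5 in TPM by 5.43 to 6.35 times in polionotus libraries and by 5.42 to 8.30 times in maniculatus libraries. Drd5 exceeded Drd2 by 3.84 to 4.65 times in polionotus libraries and by 1.81 to 2.98 times in maniculatus libraries. The lower steps were less clear: over all libraries Drd2 ran from 4.97 to 8.23 TPM and Drd4 from 0.684 to 5.14 TPM, and Drd3 from 0.241 to 0.908 TPM, so that the ranges of Drd2 and Drd4, and of Drd4 and Drd3, overlapped between libraries although not within one. Drd4 exceeded Drd3 by as little as 1.35 times, in polionotus burrowing 3. The 5 receptors together made up 209 ± 10.6 TPM in polionotus brains and 119 ± 16.7 TPM in maniculatus brains, with no overlap between the species (196 to 224 TPM and 98.0 to 141 TPM).

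**Figure D1:**
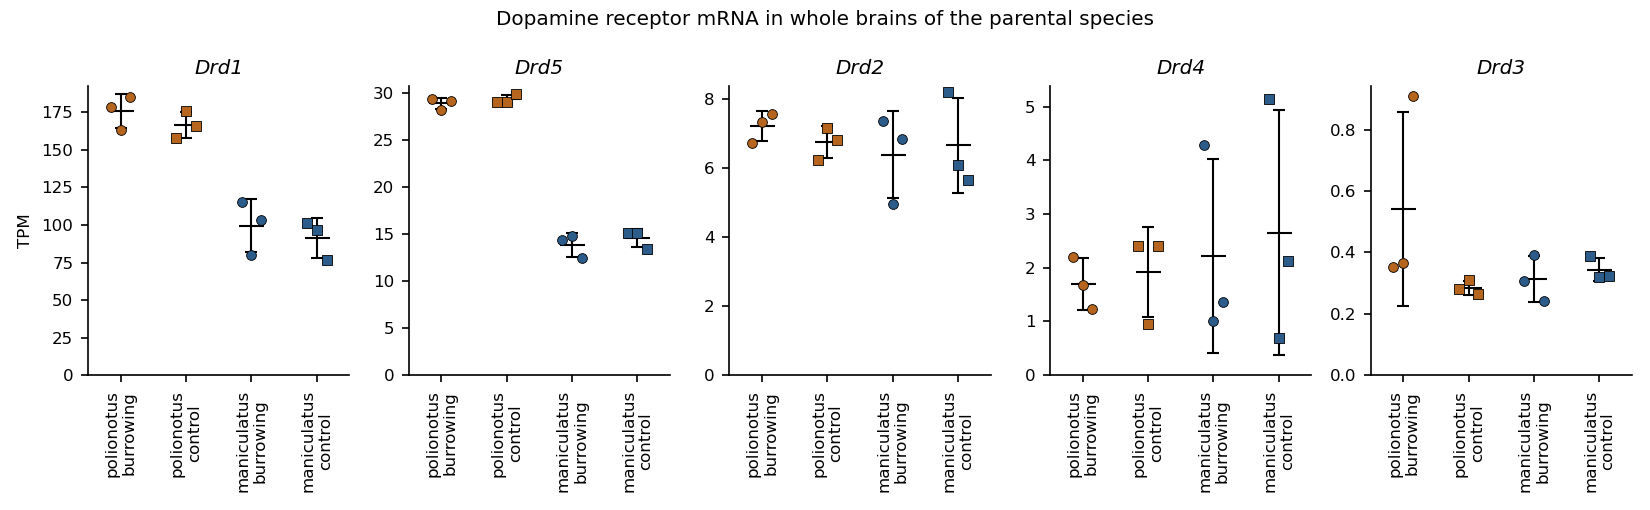
Level in TPM (vertical axes, each from 0 and on its own scale) of each dopamine receptor in the 12 parental libraries, with *P. polionotus* (brown) left of *P. maniculatus* (blue), burrowing as circles and control as squares; lines give the group mean and SD of 3 libraries. The species do not overlap for Drd1 and Drd5 and overlap for Drd2, Drd4 and Drd3.

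The D1 class differed between the species in TPM, and both of its members were higher in *P. polionotus*. The reference used to align each species is not stated, so differences in alignment and in RNA level cannot be told apart. Drd1, the main receptor of direct-pathway neurons, had 178, 163 and 185 TPM in polionotus burrowing libraries and 158, 176 and 166 TPM in polionotus control libraries. It had 115, 80.2 and 103 TPM in maniculatus burrowing libraries and 101, 96.4 and 76.4 TPM in maniculatus control libraries. The lowest polionotus library, at 158 TPM, stood above the highest maniculatus library, at 115 TPM. Averaged over the trials, Drd1 was higher in *P. polionotus* by 0.85 on the log2(TPM + 1) scale (SE 0.094, 95% interval 0.64 to 1.05, limma adjusted p = 2.79e-05), a ratio of means of 1.79. Without the 3 libraries set apart the difference was 0.75.

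Drd5, the other D1-class receptor, had 29.4, 28.3 and 29.2 TPM in polionotus burrowing libraries and 29.1, 29.1 and 29.9 TPM in polionotus control libraries. It had 14.4, 14.8 and 12.4 TPM in maniculatus burrowing libraries and 15.1, 15.1 and 13.4 TPM in maniculatus control libraries. The polionotus libraries lay close together, with an SD of 1.83% of the mean (7.57% in *P. maniculatus*), and all stood above every maniculatus library. The mean over trials was 2.05 times as high in *P. polionotus*, a log2 difference of 0.99 (SE 0.050, 95% interval 0.88 to 1.10, limma adjusted p = 8.58e-08). It was 0.96 without the 3 libraries set apart.

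The species differed at a great many genes. At an adjusted p under 0.05, 52.4% of the 14366 genes tested (those averaging 1 TPM or more) differed between the species over both trials, 39.6% in the control trial and 34.1% after burrowing. Of the dopamine receptors 2 of the 4 tested were called in each of these comparisons, which says little against backgrounds of this size. Of the genes called over both trials 62.3% were higher in *P. polionotus*, against 49.2% when libraries were scaled to a common median, and in the control trial 67.5% against 48.1%. The size of the receptor differences was less common: 2.75% of genes had a larger positive species difference than Drd5 and 3.801% a larger one than Drd1. Relative to the median gene, which was 0.055 higher in *P. polionotus*, Drd1 was 0.79 and Drd5 was 0.93 higher.

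Both species differences were seen in each trial by itself. After burrowing, Drd1 was 0.83 higher (adjusted p = 0.000804) and Drd5 1.01 higher (adjusted p = 2.58e-06) in *P. polionotus*. In the control trial, Drd1 was 0.87 higher (adjusted p = 0.000535) and Drd5 0.97 higher (adjusted p = 3.86e-06).

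In the D2 class no species difference passed the test. Drd2, the receptor of indirect-pathway neurons and the dopamine autoreceptor, had 6.75, 7.36 and 7.58 TPM in polionotus burrowing libraries and 6.25, 7.18 and 6.84 TPM in polionotus control libraries. It had 7.37, 4.97 and 6.85 TPM in maniculatus burrowing libraries and 8.23, 6.10 and 5.67 TPM in maniculatus control libraries. The polionotus values lay inside the wider maniculatus range, whose lowest and highest libraries were maniculatus burrowing 2 and maniculatus control 1. The log2 difference was 0.10 (95% interval -0.12 to 0.32, limma adjusted p = 0.431), so a difference as large as that of Drd1 lies outside the interval.

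Drd4 had 2.20, 1.67 and 1.23 TPM in polionotus burrowing libraries and 2.396, 0.954 and 2.405 TPM in polionotus control libraries. It had 4.29, 1.01 and 1.36 TPM in maniculatus burrowing libraries and 5.14, 0.684 and 2.12 TPM in maniculatus control libraries. It varied most among the receptors that passed the filter, with an SD of 34.5% of the mean in *P. polionotus* and 76.0% in *P. maniculatus*, and the highest values were those of maniculatus control 1 and maniculatus burrowing 1. The species difference was -0.15 on the log2 scale with a wide interval (-0.87 to 0.57, limma adjusted p = 0.717). Its sign turned without either of these libraries, to 0.084 without maniculatus control 1 and 0.061 without maniculatus burrowing 1.

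Drd3 averaged 0.371 TPM over the 12 libraries and did not reach the mean of 1 TPM asked for in the test. It had 0.353, 0.365 and 0.908 TPM in polionotus burrowing libraries and 0.280, 0.310 and 0.263 TPM in polionotus control libraries. It had 0.307, 0.391 and 0.241 TPM in maniculatus burrowing libraries and 0.388, 0.321 and 0.324 TPM in maniculatus control libraries. A single library, polionotus burrowing 3, stood above all others. In a fit with no filter the species difference was 0.074 (95% interval -0.11 to 0.26, limma adjusted p = 0.514).

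A ratio of a pair of genes within a library does not depend on how TPM were scaled to a common total. It still depends on how each gene was aligned in each species, and it uses the Drd1 values given above. Drd1 exceeded Drd2 by 26.4, 22.2 and 24.5 times in polionotus burrowing libraries and by 25.3, 24.5 and 24.2 times in polionotus control libraries. It exceeded Drd2 by 15.6, 16.1 and 15.1 times in maniculatus burrowing libraries and by 12.3, 15.8 and 13.5 times in maniculatus control libraries. Every polionotus library had a higher Drd1 to Drd2 ratio than every maniculatus library. On the log2 scale the ratio was 4.61 ± 0.083 in polionotus brains and 3.87 ± 0.16 in maniculatus brains (SD, n = 6 each), a difference of 0.74 (exact two-sided permutation test, p = 0.00216, the smallest that 6 against 6 libraries can give). The share of Drd2 in the summed receptor TPM was 3.34% ± 0.19 in polionotus brains and 5.48% ± 0.52 in maniculatus brains, while the share of Drd1 was 81.6% ± 0.87 in polionotus brains and 80.1% ± 2.16 in maniculatus brains (SD, n = 6 each).

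Since Drd1 and Drd2 lie mainly on striatal spiny neurons, they were set against a striatal index, the mean log2(TPM + 1) of 15 genes that both kinds of these neurons express. The index itself was higher in *P. polionotus*, at 4.57 ± 0.073, than in *P. maniculatus*, at 4.32 ± 0.12 (SD, n = 6 each), with no overlap between 4.47 to 4.67 and 4.08 to 4.41. Drd1 stood 2.85 ± 0.11 above the index in polionotus brains and 2.26 ± 0.15 above it in maniculatus brains, a difference of 0.59 with no overlap (exact permutation test, two-sided, p = 0.00216, the smallest possible). Drd2 lay below the index, at -1.58 ± 0.094 in polionotus brains and -1.42 ± 0.19 in maniculatus brains, and these overlapped (difference -0.16, exact permutation test, two-sided, p = 0.102). Leaving out 1 library at a time gave Drd2 differences from -0.22 to -0.11. The outcome changed in 1 of these 12 cases, the most extreme: without maniculatus burrowing 2 the difference was -0.22 with an exact permutation p of 0.00866.

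**Figure D2:**
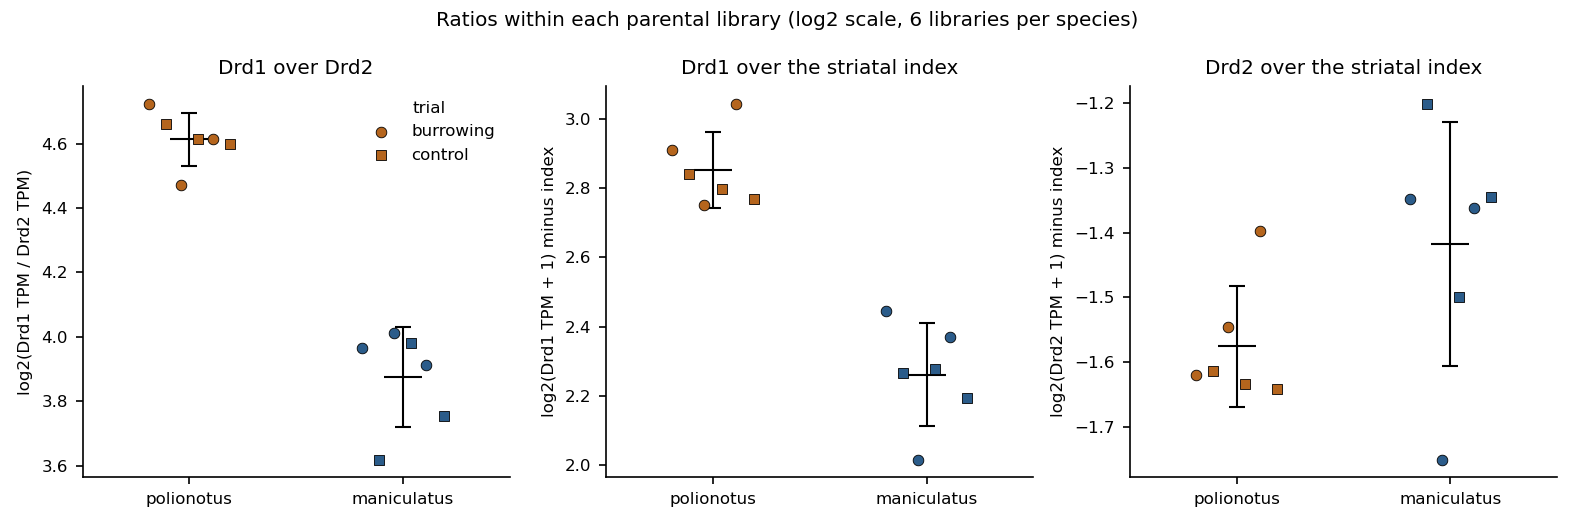
Ratios within each parental library on a log2 scale (vertical axes, which do not start at 0): Drd1 over Drd2, and Drd1 and Drd2 over the mean of 15 striatal genes, with *P. polionotus* left of *P. maniculatus*; circles are burrowing, squares control, and lines give the mean and SD of 6 libraries. The first 2 ratios do not overlap between the species, and the Drd2 ratio does.

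With the index as a covariate in the fit over all genes, Drd1 was 0.57 higher in *P. polionotus* (limma adjusted p = 0.0137) and Drd5 0.89 higher (limma adjusted p = 9.20e-05). In the control trial the Drd1 difference with this covariate was 0.53 and no longer passed (limma adjusted p = 0.0663). The index did not overlap between the species, and 8 of its 15 genes were themselves called higher in *P. polionotus*. The covariate therefore cannot separate the amount of striatal tissue from species or from the levels of these genes per cell. How far the amount of striatal tissue in a dissected brain takes part in the species difference was not tested.

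Burrowing moved none of the 4 receptors that reached the filter past the test in either species. In *P. polionotus* the 4 receptors tested differed between burrowing and control libraries by -0.082 (Drd4) to 0.086 (Drd2) on the log2 scale, with a smallest limma adjusted p of 0.998. In *P. maniculatus* they differed by -0.12 (Drd4) to 0.12 (Drd1), each with a limma adjusted p of 1. Drd5 gave the narrowest limits, with 95% intervals of -0.18 to 0.13 in polionotus brains and -0.22 to 0.085 in maniculatus brains. For Drd1 the intervals were -0.22 to 0.37 in polionotus brains and -0.17 to 0.41 in maniculatus brains, so trial differences of moderate size could not be detected with 3 libraries a group. Without maniculatus control 3, the maniculatus library lowest in Drd1, its trial difference in *P. maniculatus* was -0.0044. Drd3, below the filter, had its 3 polionotus burrowing libraries (0.353 to 0.908 TPM) above its 3 polionotus control libraries (0.263 to 0.310 TPM). In the fit with no filter its trial difference was 0.25 in *P. polionotus* (95% interval -0.017 to 0.51) and -0.035 in *P. maniculatus* (-0.30 to 0.23), each with a limma adjusted p of 1.

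This lack of calls was general. Among all genes tested, limma called 0.0% between the trials of polionotus mice (at an unadjusted p under 0.05 there were 446), 0.00696% between those of maniculatus mice, which is 1 gene, and 0.00696% for the mean of both species. The species by trial interaction was called at 0.0% of genes (415 had a p under 0.05 before adjustment) and at none of the 4 receptors tested, whose interaction terms ran from -0.040 (Drd1) to 0.14 (Drd2). In the hybrids edgeR called 0.0% of genes between trials (90 had a p under 0.05 before adjustment, and DESeq2 called 2). Drd1 summed over both alleles had 35.1 ± 3.25 CPM (counts scaled to a common library total) after burrowing and 31.9 ± 1.45 in the control trial. Drd2 had 67.7 ± 0.605 CPM after burrowing and 67.4 ± 3.49 in the control trial, and Drd3 had 2.04 ± 0.499 after burrowing and 1.93 ± 0.481 in the control trial (SD, n = 3 each). The groups of hybrids overlapped for each of the 3 genes, and the smallest edgeR adjusted p was 0.965. These counts hold just the reads assignable to 1 of the alleles and are not scaled per gene length, so no test was made between genes. Drd2 stood above Drd1 in these counts and far below it in the parental TPM, and the cause was not tested.

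In an F1 hybrid both alleles share the same cells, so the share of counts on the polionotus allele compares the alleles at equal cell numbers. Drd1 was close to balanced. It had 422 polionotus and 421 maniculatus counts, 582 and 536, and 396 and 384 in the burrowing hybrids, and 192 and 189, 199 and 185, and 865 and 850 in the control hybrids. The polionotus share was 50.9% ± 0.822 (SD, n = 6), above 50% in 6 of 6 animals and 52.1% at the highest. It lay in each of them below the share of all counts on the polionotus allele (52.6% to 53.1%). The 95% Wilson interval of every animal included 50% (these intervals cover counting error only). The log2 allele difference was 0.053 (SE 0.037, 95% interval -0.035 to 0.14, edgeR quasi-likelihood test, adjusted p = 0.269).

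Drd2 had more counts on the polionotus allele in every animal. It had 1045 polionotus and 737 maniculatus counts, 1075 and 903, and 873 and 636 in the burrowing hybrids, and 481 and 294, 440 and 362, and 2118 and 1688 in the control hybrids. The share was 57.2% ± 2.90 (SD, n = 6), from 54.3% to 62.1%, and the Wilson interval of each animal excluded 50%. Of all counts of burrowing hybrid 2 and of control hybrid 2, however, 52.8% lay on the polionotus allele in each. The Drd2 intervals of these animals, 52.1% to 56.5% and 51.4% to 58.3%, included that share. The log2 allele difference was 0.42 (SE 0.068, 95% interval 0.26 to 0.58, edgeR quasi-likelihood test, adjusted p = 0.00236). Fitted on the 3 burrowing animals alone it was 0.40 (edgeR adjusted p = 0.0449), and on the 3 control animals alone it was 0.44 and no longer passed (edgeR adjusted p = 0.0668).

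Drd3 was thinly covered, with 66, 44 and 47 counts in the burrowing hybrids and 28, 19 and 98 in the control hybrids. Its polionotus share ran from 36.2% to 59.1% (47.4% ± 9.08, SD, n = 6) and every Wilson interval included 50%. The log2 allele difference of -0.16 had an interval of -0.66 to 0.34 (edgeR adjusted p = 0.531). A polionotus excess as large as that of Drd2 lies just outside this interval, and an equally large maniculatus excess lies inside it.

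**Figure D3:**
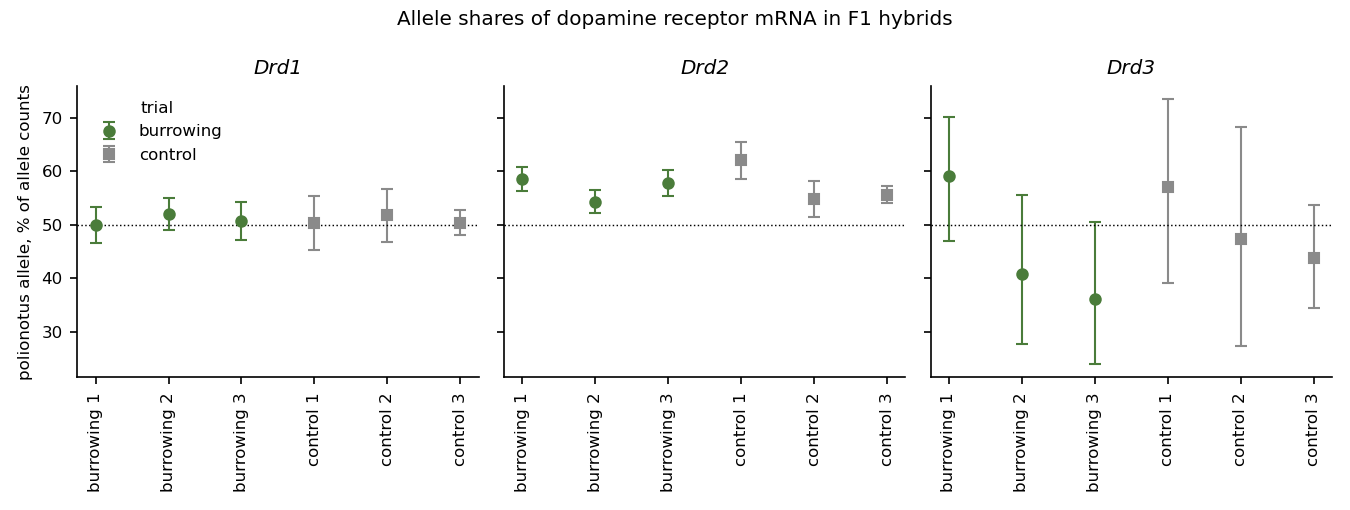
Percentage of allele counts on the polionotus allele (vertical axis, which does not start at 0) in each of the 6 F1 hybrids for Drd1, Drd2 and Drd3, burrowing (green circles) left of control (grey squares); bars are 95% Wilson intervals and the dotted line marks 50%. Drd2 lies above the line in all 6 animals with no bar reaching it. The share of all counts of an animal on the polionotus allele was 52.6% to 53.1%, which the Drd2 bars of burrowing 2 and control 2 include.

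Allele differences were common too: edgeR called 55.7% of the 11928 genes, and 1 of the 3 receptors measured is not above that background. The alleles were not evenly counted over the whole table, since 52.6% to 53.1% of all counts of an animal lay on the polionotus allele and the median gene had a mean share of 51.9%, a log2 difference of 0.11. Relative to the median gene Drd1 was -0.054, Drd2 0.31 and Drd3 -0.27. When each allele column was given its own TMM scaling, the median gene moved to -0.071, the share of called genes with a higher polionotus allele was 39.8% against 61.3%, Drd1 turned to -0.13 (edgeR adjusted p = 0.065) and Drd2 fell to 0.24 (edgeR adjusted p = 0.0191). The share of Drd2 exceeded that of Drd1 in 6 of 6 animals, by 2.29 to 11.7 points, and this does not depend on scaling. A mean share above that of Drd2 was found for 31.96% of genes.

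No change of an allele difference with the trial passed the test. The allele by trial term was 0.0051 for Drd1, -0.034 for Drd2 and -0.16 for Drd3, none called (edgeR adjusted p of 1 for each), with a background of 0.226% of genes called. The intervals were wide, at -0.20 to 0.21 for Drd1 and -0.40 to 0.33 for Drd2.

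The parental and the hybrid values come from tables that were scaled separately, so they are given side by side and no test was made between them. Drd1 was 0.85 higher in polionotus brains than in maniculatus brains, while its polionotus allele was 0.053 higher than its maniculatus allele in hybrids. Drd2 was 0.10 higher in polionotus brains, with an interval that includes 0, while its polionotus allele was 0.42 higher in hybrids. The 95% intervals of the species and the allele difference did not overlap for Drd1 (0.64 to 1.05 and -0.035 to 0.14) and overlapped for Drd2 (-0.12 to 0.32 and 0.26 to 0.58). Whether the species and allele differences of a gene differ was not tested.

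**Figure D4:**
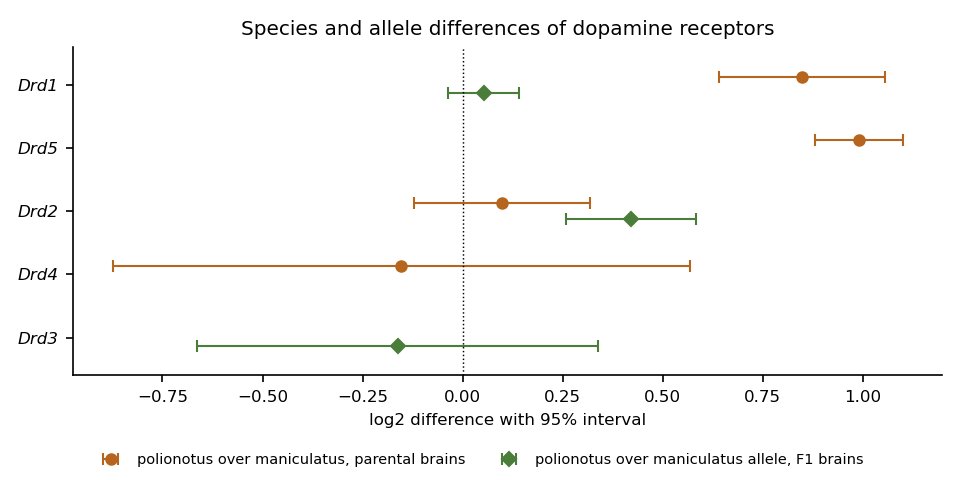
Log2 differences (horizontal axis) with 95% intervals for each receptor: *P. polionotus* minus *P. maniculatus* in parental brains (brown circles, limma) and polionotus minus maniculatus allele in F1 hybrids (green diamonds, edgeR). Drd1 and Drd5 differ between the parental species and Drd2 between the alleles; Drd3 has no tested species value, and Drd4 and Drd5 have no allele value here.

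Gene lists around the receptors are read against all genes tested: *P. polionotus* was called higher at 32.6% of them and lower at 19.8%. The shares of genes that carry the receptors' signal lay near these. Of 40 listed genes of G proteins, adenylyl cyclases, phosphodiesterases, kinases, RGS proteins and potassium channels, 37 were tested in the parental table, and 13 (35.1%) were higher and 5 (13.5%) lower in *P. polionotus*, with a median log2 difference of 0.053 against 0.055 for all genes. The count of lower genes was 11 when libraries were scaled to a common median, 9 without the 3 libraries set apart, and 3 without maniculatus control 1, maniculatus control 2, polionotus control 1 or polionotus burrowing 2. Pde2a, a cyclic nucleotide phosphodiesterase, averaged 74.0 ± 2.65 TPM in polionotus brains and 50.2 ± 3.46 TPM in maniculatus brains (log2 difference 0.55, limma adjusted p = 5.19e-06). Gng7, the gamma subunit that pairs with the olfactory-type G protein of striatal neurons, averaged 9.98 ± 1.99 TPM in polionotus brains and 4.88 ± 0.536 TPM in maniculatus brains (0.89, adjusted p = 6.62e-05). Arpp19, a regulator of protein phosphatase, was also higher, at 64.1 ± 7.91 TPM in polionotus brains and 42.7 ± 2.89 TPM in maniculatus brains (0.57, adjusted p = 0.000287). Rgs8, which speeds the turn-off of G proteins, was lower in *P. polionotus*, at 57.8 ± 5.24 TPM against 89.1 ± 12.5 TPM in *P. maniculatus* (-0.61, adjusted p = 0.000281, SD, n = 6 each throughout).

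The first steps behind Drd1 in striatal neurons were looked up for their place in the chain, after their values were seen. Gnal, the alpha subunit of the olfactory-type G protein through which Drd1 acts there, was lower in *P. polionotus*, at 17.3 ± 0.746 TPM, than in *P. maniculatus*, at 20.4 ± 0.640 TPM (log2 difference -0.22, limma adjusted p = 0.000986). Adcy5, the main striatal adenylyl cyclase, had 16.9 ± 0.912 TPM in polionotus brains and 15.1 ± 1.48 TPM in maniculatus brains and did not pass (0.16, limma adjusted p = 0.0663). Ppp1r1b, the DARPP-32 protein that cyclic AMP signalling phosphorylates, was higher, at 510 ± 29.2 TPM in polionotus brains and 392 ± 37.6 TPM in maniculatus brains (0.38, limma adjusted p = 0.000883).

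A further list was drawn up for genes that phosphorylate, internalise or traffic the receptors. Of its 25 symbols 21 were tested, of which 6 (28.6%) were higher and 4 (19.05%) lower in *P. polionotus*. This is close to the 32.6% and 19.8% of all genes (median 0.081 against 0.055 for all genes). With common-median scaling, 4 were higher and 5 lower. Arrb1, the arrestin that binds phosphorylated receptors, averaged 128 ± 9.10 TPM in polionotus brains and 97.6 ± 5.97 TPM in maniculatus brains (0.38, limma adjusted p = 0.00025). Caly, a vesicle protein known for binding the D1 receptor, averaged 164 ± 14.9 TPM in polionotus brains and 122.6 ± 5.26 TPM in maniculatus brains (0.41, limma adjusted p = 0.00025). Cav1, the coat protein of caveolae, was 0.55 higher (limma adjusted p = 1.12e-05). Cntnap1 was 0.36 lower, at 242 ± 20.2 TPM in polionotus brains and 310 ± 11.96 TPM in maniculatus brains (limma adjusted p = 0.000491). It is given as a member of the list, and whether it takes part in receptor handling was not tested.

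Of 18 listed genes of the dopamine neurons that supply the ligand, 13 were in the parental table and 8 tested, of which 2 (25%) were higher and 1 (12.5%) lower in *P. polionotus*, against 32.6% and 19.8% of all genes (median -0.019 against 0.055 for all genes). Slc6a3, the dopamine transporter, averaged 4.78 ± 0.701 TPM in polionotus brains and 3.603 ± 0.623 TPM in maniculatus brains (0.33, limma adjusted p = 0.0148). Slc18a2, the vesicular monoamine transporter, was lower, at 14.9 ± 1.10 TPM in polionotus brains and 17.4 ± 1.08 TPM in maniculatus brains (-0.21, limma adjusted p = 0.0125). Maob, which breaks down monoamines, was 0.44 higher (limma adjusted p = 3.89e-05), and En1, a homeobox gene of these neurons, had a difference of -0.10 and did not pass (limma adjusted p = 0.341). Without maniculatus burrowing 2, En1 had -0.17 and passed (limma adjusted p = 0.0497), which made 2 genes of the list lower.

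Of 9 listed genes of D1 neurons 8 were tested, with 2 (25%) higher and 1 (12.5%) lower in *P. polionotus*, against 32.6% and 19.8% of all genes (median 0.056 against 0.055 for all genes). Pdyn, the dynorphin precursor, averaged 45.2 ± 3.72 TPM in polionotus brains and 26.9 ± 4.81 TPM in maniculatus brains (0.74, limma adjusted p = 0.000269). Slc35d3, which in mice helps the D1 receptor to leave the endoplasmic reticulum, averaged 31.9 ± 4.02 TPM in polionotus brains and 22.3 ± 4.03 TPM in maniculatus brains (0.51, limma adjusted p = 0.00613). Sfxn1 was lower, at 12.99 ± 0.831 TPM in polionotus brains and 20.3 ± 0.848 TPM in maniculatus brains (-0.61, limma adjusted p = 3.36e-06). The homeobox gene Isl1 had a difference of 0.19 and did not pass (limma adjusted p = 0.14).

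Of 9 listed genes of D2 neurons 8 were tested, with 3 (37.5%) higher and 2 (25%) lower in *P. polionotus*, against 32.6% and 19.8% of all genes (median 0.10 against 0.055 for all genes). Adora2a, the adenosine receptor that opposes Drd2 in these cells, averaged 37.9 ± 2.84 TPM in polionotus brains and 19.2 ± 4.01 TPM in maniculatus brains (0.96, limma adjusted p = 8.66e-05). Plxdc1 was 0.53 higher (limma adjusted p = 8.96e-05), and Penk, the enkephalin precursor, averaged 450.1 ± 32.9 TPM in polionotus brains and 339 ± 46.8 TPM in maniculatus brains (0.42, limma adjusted p = 0.00314). Ttc12, a gene that lies near Drd2 in mammals, was 0.19 lower (limma adjusted p = 0.0249), a call that was lost when any 1 of 6 libraries was left out. The other lower gene, Gpr52, named after its values were seen, averaged 34.3 ± 8.63 TPM in polionotus brains and 46.6 ± 8.99 TPM in maniculatus brains (-0.44, limma adjusted p = 0.044, SD, n = 6 each). The count of 2 lower genes was 0 or 1 in 11 of the 12 fits that left out 1 library, the exception being the fit without maniculatus burrowing 2.

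The 15 genes shared by both types, which form the striatal index, had 8 (53.3%) higher and 0 lower in *P. polionotus*, against 32.6% and 19.8% of all genes (median 0.24 against 0.055 for all genes), and 6 higher with common-median scaling. Foxp1, a transcription factor of spiny neurons, averaged 6.93 ± 0.800 TPM in polionotus brains and 4.70 ± 0.488 TPM in maniculatus brains (0.47, limma adjusted p = 6.46e-05). Rgs9, a striatal RGS protein, averaged 14.4 ± 0.722 TPM in polionotus brains and 9.71 ± 1.59 TPM in maniculatus brains (0.53, limma adjusted p = 0.000567). Gng7 and Ppp1r1b, given above, are the other 2 of the 4 with the smallest p, and the lists share several genes. With the striatal index as a covariate 7 genes named here that are not part of the index no longer passed (limma adjusted p from 0.0864 to 0.858), and they did so with unlike differences. Pdyn kept 0.46, Ttc12 -0.15, Rgs8 -0.25 and Cntnap1 -0.21, while Penk had 0.034, Slc35d3 0.045 and Slc18a2 -0.029. Members of the index are not given with this covariate, since the index holds their own values. The summed TPM of the list ran from 1248 to 1455 in polionotus brains and from 911 to 1265 in maniculatus brains. Of the marker lists for other sites of dopamine receptors, the 5 genes of the islands of Calleja besides Drd3 summed to 17.1 to 19.4 TPM in polionotus brains and 14.1 to 15.8 TPM in maniculatus brains. The 10 pituitary genes summed to 5.26 to 9.08 TPM in polionotus brains and 9.04 to 15.2 TPM in maniculatus brains, with 5 of them under 0.5 TPM in every library (Fshb, Pitx1, Pou1f1 and Ghrhr among them). The 14 pineal and photoreceptor genes summed to 51.0 to 63.5 TPM in polionotus brains and 55.3 to 71.6 TPM in maniculatus brains. Of these 14 genes, 7 were under 0.5 TPM in every library (Crx, Pde6b and Cnga3 among them). The part of these tissues in the receptor levels was not tested.

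**Figure D5:**
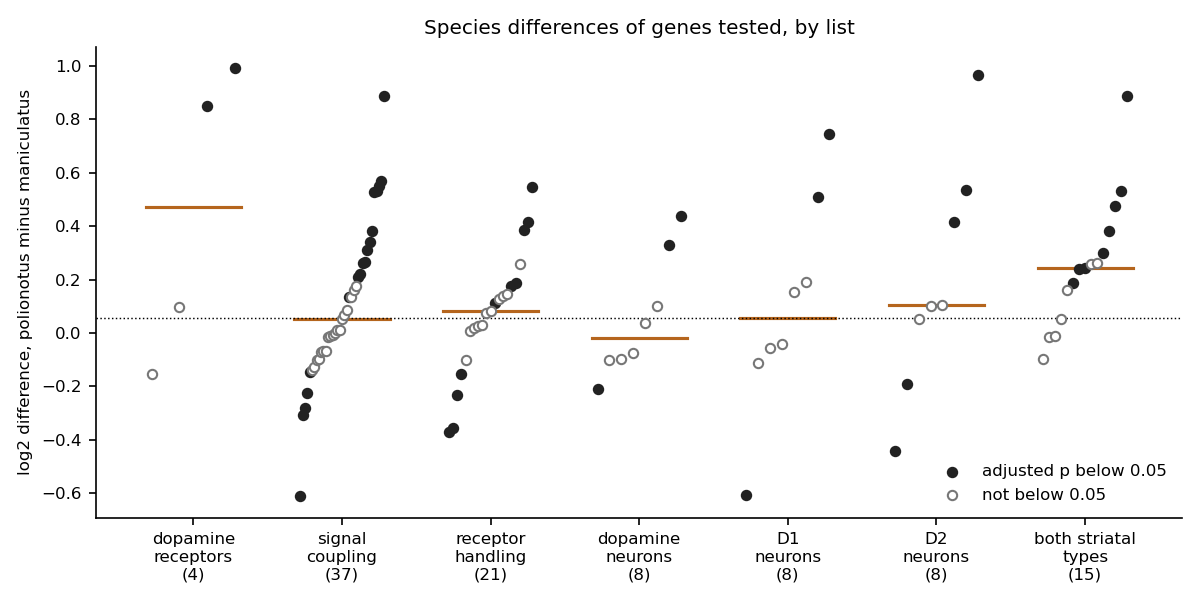
Log2 species difference (vertical axis, *P. polionotus* minus *P. maniculatus*, mean of both trials) of every gene tested in each list, with the number tested in brackets; filled points have a limma adjusted p below 0.05, brown lines are list medians and the dotted line is the median of all genes. The list shared by both striatal types has 8 called genes above the line and none called below it.

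In the hybrids 34.2% of all genes were called with a higher and 21.5% with a lower polionotus allele. Of 32 signal-coupling genes measured, the polionotus allele was higher at 5 and lower at 9, which is 15.6% and 28.1% (median -0.069 against 0.11 for all genes), and with TMM scaling of the allele columns at 2 and 17. Gnao1, the alpha subunit of the G protein through which the D2 class acts, had an allele difference of 0.92 (edgeR adjusted p = 9.21e-06), and Arpp21 one of 0.82 (2.74e-06). Of 19 receptor-handling genes the polionotus allele was higher at 5 and lower at 7, which is 26.3% and 36.8% (3 and 11 genes with TMM scaling). Among those with the smallest p-values were Epb41l1, which anchors D2-class receptors, at 1.13 (edgeR adjusted p = 4.78e-06) and Adrbk2, a receptor kinase, at 1.30 (6.07e-06).

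The counts for the neuron markers are small and several rest on single animals. They stand beside 34.2% of all genes with a higher and 21.5% with a lower polionotus allele. Of 7 genes of D1 neurons the polionotus allele was higher at 1 and lower at 1, which is 14.3% each (0 and 3 genes with TMM scaling). The higher count was 0 without control hybrid 1 or any of the 3 burrowing hybrids. The lower one was Sfxn1 at -0.92 (edgeR adjusted p = 0.00943), while Tac1 at 0.076 did not pass (0.114). Of 6 genes of D2 neurons the polionotus allele was higher at 3 and lower at 2, which is 50% and 33.3%. The lower count was 0 without control hybrid 1 or 3 or burrowing hybrid 2 or 3, and 1 without control hybrid 2. The polionotus allele was higher by 0.80 for Plxdc1 (edgeR adjusted p = 4.01e-05), 0.58 for Adora2a (0.000348) and 0.54 for Grik3 (0.000105). Of 14 genes shared by both types it was higher at 2 (14.3%) and lower at 3 (21.4%), with Rasd2 at 1.33 (edgeR adjusted p = 1.74e-05) and Rgs9 at -0.37 (0.000931) among them. Of 8 genes of dopamine neurons it was higher at 2 (25%) and lower at 0, and the higher count was 0 or 1 in each of the 6 fits that left out 1 animal. The 2 were Aldh1a1 at 0.72 (edgeR adjusted p = 0.0424), lost in 5 of these fits, and Gch1 at 0.77 (edgeR adjusted p = 0.0451), lost in 4, and neither passed with TMM scaling. Ret had -0.49 and did not pass (edgeR adjusted p = 0.088), but it passed with TMM scaling (-0.67, edgeR adjusted p = 0.0297) and without control hybrid 1 (-0.64, edgeR adjusted p = 0.0355).

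After the group means were taken out, Drd1 and Drd2 deviated together across the parental libraries (Pearson r = 0.85, Spearman rho = 0.72, over 12 libraries), and each followed the summed striatal list (r = 0.78 for Drd1 and 0.73 for Drd2). Drd1 went against the summed pineal and photoreceptor list (r = -0.76). Drd5 followed neither Drd1 (r = 0.16) nor Drd2 (r = -0.025), and Drd3 neither Drd1 (r = 0.092) nor Drd2 (r = 0.081). Drd4 went against the summed pituitary list (r = -0.74) and hardly with the pineal list (r = -0.13). These values describe 12 libraries whose groups were centred and which share their TPM scaling.

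The genes whose deviations were most like those of a receptor, among 9668 or 9669 genes averaging 5 TPM or more, were the following. Nearest to Drd1 were Cbln2 (r = 0.93), Tars (0.93), Acot13 (0.91), Rxfp3 (0.89) and Gpr83 (0.89). Nearest to Drd2 were Pdyn (r = 0.96), Gchfr (0.94), Cacng4 (0.91), Pik3cd (0.90) and Mpdu1 (0.90), so that a gene listed for D1 neurons stood closest to Drd2. Nearest to Drd4 were Mfsd3 (r = 0.94), Fam57b (0.94), Cd8a (0.91), Ncbp2 (0.90) and Hgh1 (0.90), and nearest to Drd5 were Nckipsd (r = 0.96), Gcnt4 (0.90), Dcakd (0.90), Pfdn4 (0.90) and Sdhaf4 (0.87). These are the highest of a great many values over 12 libraries, and no test was made.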

How the data were processed

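The authors deposited TPM per gene for 12 parental libraries and whole-number read counts per gene and parental allele for 6 F1 hybrids. Per the labels' protocols, whole-brain RNA went into stranded poly(A) libraries. STAR 2.4.2a is named in the submitters' processing notes. The sources used here do not state the genome build, the reference each species was aligned to, the rule for giving reads to alleles or the way TPM were computed, so coordinates are not printed. TPM keep no depth, so only the spread between libraries shows their precision. A row of the TPM table that names no gene held 0.789% to 2.48% of a library's TPM and was left out.

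Parental libraries were tested with limma 3.58.1 (R 4.3.3, mean trend) on log2(TPM + 1) in the 14366 genes averaging 1 TPM or more, with 1 mean for each of 4 groups and 7 contrasts. This scale understates changes of low genes. For the trial difference in hybrids the counts of the alleles were added up and passed to edgeR 4.0.16 (quasi-likelihood F test, TMM, genes kept by filterByExpr). The allele difference used the same test with the animal as a block, 1 shared library size for both alleles and a mean of at least 20 counts. P-values were two-sided and adjusted by Benjamini-Hochberg over all genes of a comparison, and genes under 0.05 were called. Ratios were compared by exact permutation over libraries (scipy 1.17.1). The functions were tested on simulated data. Each library was taken as 1 animal, and p-values measure only the spread between these libraries. The sample titles gave groups and replicate numbers.

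The receptors, the other gene lists and the tests were chosen with earlier results of these data known. Named from the other lists were the 4 genes with the smallest p between species and the 3 with the smallest p between alleles, and the 5 genes most like each receptor; some genes that this rule names are not reported here. Alternatives were other pseudocounts, filters, scalings and tools, a striatal covariate, a replicate block, and leaving libraries out.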

Additional observations from a re-analysis of the deposited data

Results flagged for a closer look

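Drd3 reached 0.908 TPM in polionotus burrowing 3, while the nearest of the other 5 polionotus libraries had 0.365 TPM; it drew attention because this gap takes up 0.843 of the range of the 6 libraries. The same library was 1 of the 3 that a principal component set apart. Of 22 groups of values examined in this way only this one stood out, and chance flags about 1 in 20 groups. In the burrowing hybrids, which are other animals, Drd3 had 1.52 to 2.51 CPM, against 1.51 to 2.45 in the control hybrids. The cause of the high value was not tested.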

How the results depend on the processing

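The species differences of Drd1 and Drd5 over both trials and after burrowing, that of Drd5 in the control trial, and the Drd1 ratios kept their direction and passed under every alternative run; the control-trial difference of Drd1 did not pass with the striatal covariate (0.53, adjusted p = 0.0663), and the allele difference of Drd2 did not with control animals only (0.44, adjusted p = 0.0668). The causes of these changes and of those below were not tested. Fits within 1 trial also rest on fewer animals. Values of receptors that did not pass changed sign often. Under the striatal covariate Drd2 had species differences of -0.19 over both trials, -0.32 in the control trial and -0.059 after burrowing and a mean trial difference of -0.019, Drd1 had an interaction of 0.079, Isl1 a species difference of -0.15, and 4187 genes were called over both trials and 2682 in the control trial. Without the 3 libraries set apart, Drd4 had species differences of 0.039 over both trials and 0.080 in the control trial and an interaction of -0.082, Drd2 had -0.10 in the control trial and a mean trial difference of -0.026, and Drd1 had a trial difference of -0.0044 in *P. maniculatus* and an interaction of 0.081. With quantile normalization and with median scaling Drd2 in the control trial had -0.060 and -0.062, the trial difference of Drd5 in *P. polionotus* was 0.0072 and 0.011, and the interaction of Drd1 was 0.017 and 0.027. With TMM on the allele columns Drd1 had -0.13, Tac1 -0.10 and the allele by trial term of Drd2 was 0.0046.

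Counts of called genes moved where they were small. Between trials in *P. maniculatus* 0 were called with a pseudocount of 0.1, 2 with no filter and 0 with only the groups compared; in *P. polionotus* 3 with no filter. For the mean of both species 0 were called with a pseudocount of 0.1 or quantile normalization and 2 with median scaling or no mean trend, and the interaction had 1 with a pseudocount of 5 or no filter. DESeq2 called 2 genes between trials in hybrids and 60 for the allele by trial term. The allele difference had 3212 genes with burrowing animals only and 3999 with control animals only.

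In no pair of groups compared did all same-numbered libraries deviate together at a correlation above 0.1, so the numbers were not used to pair them. Deviations correlated above 0.1 in 5 of 18 parental pairs (-0.229 to 0.547) and 1 of 3 hybrid pairs (-0.584 to 0.186). The 3 pairs of polionotus burrowing with maniculatus control, groups not compared directly, were all above it (0.178 to 0.547), and of maniculatus burrowing with maniculatus control the third was just below (0.254, 0.126 and 0.0994). With the replicate block 7764 genes were called between the species and 0 between trials for the mean of both species; with no replicate block for the animal, 4627 genes were called between the alleles and 16 for the allele by trial term.

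Leaving out 1 library at a time gave these ranges where a sign or count changed. For Drd1 they were -0.027 to 0.032 (allele by trial), -0.19 to 0.082 (interaction) and -0.0044 to 0.26 (trial, *P. maniculatus*). For Drd2 they were -0.22 to -0.11 (striatal index), -0.11 to 0.099 (allele by trial), -0.0094 to 0.23 (interaction), -0.064 to 0.17 (species, control trial), -0.024 to 0.0096 (trial, hybrids), -0.15 to 0.095 (trial, *P. maniculatus*) and -0.032 to 0.091 (trial, both species). For Drd3 they were -0.59 to 0.11 (allele by trial) and -0.10 to 0.30 (trial, hybrids). For Drd4 they were -0.43 to 0.50 (interaction), -0.40 to 0.29 (species, burrowing), -0.63 to 0.30 (species, control trial), -0.38 to 0.084 (species, both trials), -0.58 to 0.35 (trial, *P. maniculatus*), -0.35 to 0.052 (trial, *P. polionotus*) and -0.33 to 0.14 (trial, both species). For Drd5 they were -0.023 to 0.10 (interaction) and -0.12 to 0.0020 (trial, *P. maniculatus*). Genes called ran from 10 to 73 (allele by trial), 0 to 2 (interaction), 1 to 6 (trial, *P. maniculatus*), 0 to 2 (trial, *P. polionotus*) and 0 to 3 (trial, both species).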

Other observations

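Aanat, the enzyme that makes the melatonin precursor in the pineal gland, a site of Drd4, averaged 1.06 ± 0.231 TPM in polionotus brains and 5.00 ± 1.11 TPM in maniculatus brains (SD, n = 6 each, log2 difference -1.54). Aanat had the lowest difference of the 6 pineal and photoreceptor genes tested. Of these 6, 1 (16.7%) was called higher and 2 (33.3%) lower, against 32.6% and 19.8% of all genes, with a median of 0.020. The levels of Drd4 did not differ past the test. Pomc, a pituitary hormone precursor also made in the hypothalamus, averaged 2.96 ± 0.745 TPM in polionotus brains and 7.20 ± 1.99 TPM in maniculatus brains (log2 difference -1.03). It had the lowest difference of the 3 pituitary genes tested (-1.03 to 0.22), of which 0 were called higher and 1 (33.3%) lower. Adora2a and Plxdc1, both listed for D2 neurons, were higher in *P. polionotus* and had a higher polionotus allele in hybrids, whereas Rgs9 was higher in *P. polionotus* and had a lower polionotus allele. These genes were chosen after their values were seen.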
